A study of Homo sapiens with 6 samples.

Results

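The genes followed here are those of the replication checkpoint that runs from the kinase ATR to its effector kinase CHK1: ATR, ATRIP, CHEK1, CLSPN, TOPBP1, RAD1, TIMELESS and TIPIN, with AL354864.1, a feature on the strand opposite CLSPN, and BRIX1, a gene on the strand opposite RAD1. The members were listed by name and Ensembl identifier, with no cut on a measured value, but with earlier results of these data known. All 10 were present among the 60252 gene identifiers of the count table, and 8 passed the filter on low counts that left 13510 features for testing (ATRIP and TIPIN did not). RNA was sequenced from RPE-1 cells, which are human cells of the retinal pigment epithelium made immortal with telomerase, in 6 conditions and 3 independent experiments, lettered A, B and C. Arrested cells were held in early S phase with 2 mM thymidine for 24 h and were not released. Released cells were washed 3 times, received AZ20, an inhibitor of ATR, at 2 µM or its solvent DMSO 1 h after the wash, and were collected at 4 h (late S phase, 3 h of exposure; 4h_DMSO and 4h_ATRi) or at 6 h (G2 phase, 5 h of exposure; 6h_DMSO and 6h_ATRi). Cycling cells were asynchronous and untreated. All released groups therefore share the thymidine block, and only cycling cells lack it. Each condition had 3 libraries except 6h_ATRi, which had 2 (A and B); its experiment C was not analysed here. All libraries come from 1 cell line, and the inhibitor was used at 1 dose. The series asked which genes depend on ATR for their transcription in late S and G2 phase.

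ATR is a kinase that is recruited through its partner ATRIP to single-stranded DNA at stalled or damaged replication forks. It is switched on by TOPBP1, which is itself brought to the fork by the ring-shaped 9-1-1 clamp, of which RAD1 is a subunit. Active ATR phosphorylates claspin, the product of CLSPN, which then presents CHK1 (the product of CHEK1) for phosphorylation, while TIMELESS and TIPIN form the fork protection complex that travels with the replisome and helps claspin. CHK1 in turn restrains the CDC25 phosphatases and thereby CDK activity until replication is complete. In dividing cells CLSPN is known as a gene transcribed with the cell cycle, with its highest level around S phase. BRIX1 is a ribosome assembly factor and no part of the checkpoint. AL354864.1 is annotated as an antisense RNA with no known function.

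The sequences that matter for reading the counts are those where CLSPN and AL354864.1 lie on the same DNA. In GENCODE 29 (GRCh38), AL354864.1 has 2 exons and 539 bases on the plus strand of chromosome 1, and 280 of these bases (51.9%) are the reverse complement of coding exons of CLSPN, which runs on the minus strand. Its first exon (chr1:35739389-35739513, plus strand, 125 bases) lies wholly over CLSPN exon sequence, and the end of its second exon (chr1:35743455-35743576, plus strand, 122 bases) does so over 76 bases. The sequences of AL354864.1 are given 5′ to 3′, with bases over CLSPN coding exons in capitals.
AL354864.1 exon 1: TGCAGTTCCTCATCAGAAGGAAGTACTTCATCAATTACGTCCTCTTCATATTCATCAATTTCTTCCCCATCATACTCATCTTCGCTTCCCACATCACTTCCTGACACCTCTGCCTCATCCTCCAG
AL354864.1 end of exon 2: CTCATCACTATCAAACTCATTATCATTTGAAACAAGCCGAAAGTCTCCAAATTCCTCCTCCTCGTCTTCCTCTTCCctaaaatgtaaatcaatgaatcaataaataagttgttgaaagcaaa
Over the bases in capitals, only the strand of a read tells CLSPN from AL354864.1.

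The 250 bases upstream of the CLSPN start in RefSeq (chr1:35769979-35770228, minus strand, GRCh38.p14) are shown because the claspin locus held the only member called without the experiment as a block; capitals mark CCAAT boxes, the letters CCAAT on either strand.
CLSPN upstream: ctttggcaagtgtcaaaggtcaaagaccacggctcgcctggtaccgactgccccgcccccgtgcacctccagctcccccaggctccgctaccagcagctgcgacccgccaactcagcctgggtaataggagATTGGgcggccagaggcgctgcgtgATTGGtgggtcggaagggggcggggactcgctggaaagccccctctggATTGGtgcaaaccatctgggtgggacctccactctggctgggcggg
This window held 3 CCAAT boxes, all on the reverse strand, 119, 94 and 46 bases before the start. CCAAT was found on either strand in 32.0% of 35116 windows of the same length. No match was found in it to the E2F motifs TTTCGCGC, TTTGGCGC, TTTCCCGC and TTTGCCGC (at least 1 of them in 2.79% of windows) or to the CHR motifs TTTGAA and TTCGAA (at least 1 in 14.3%), searched on both strands. Of the other members with an entry, ATRIP, CHEK1, TIMELESS and TIPIN held CCAAT in at least 1 of their windows, a second TIPIN start held 2 matches to TTTGGCGC, 1 on each strand, and ATR, TOPBP1, RAD1 and BRIX1 held none of the motifs. AL354864.1 was not matched to an entry. RAD1 and BRIX1 point away from each other on chromosome 5, with 206 bases between their starts in RefSeq.

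Library totals ran from 1758747 to 2357561 counts, so that 10 counts correspond to between 4.43 and 5.93 CPM, the unit of all levels given here (a count relative to the TMM-scaled library total). The first principal component (27% of the variance) set all libraries of experiment B apart from A and C, and each call is therefore given below also from a fit with the experiment as a block where it differs. KRT8, VIM and KRT18, cytoskeletal genes of the line, had means of 3840, 1100 and 283 CPM, and KRT7, a further keratin gene, had 10.8 CPM. CD3E, CD14 and EPCAM, markers of other cell types, were at or near 0. The markers of differentiated pigment epithelium were mixed: RPE65, TTR and RLBP1 were at or near 0, TYR (1.32 CPM) and OTX2 (2.13 CPM) were low, and MITF (4.76 CPM), BEST1 and PMEL were counted in 17 of 17 libraries, as was the photoreceptor gene CRX (11.9 CPM). In these libraries, features opposite to abundant genes held many counts: BEST1, an exon of which overlaps the ferritin gene FTH1 on the other strand, had 12800 ± 1730 CPM (SD, n = 17) and FTH1 132 ± 21.7, and PMEL, opposite CDK2, had 323 ± 52.3 CPM and CDK2 8.78 ± 3.64. The opposite feature held more counts in 17 of 17 libraries in both pairs. The library kit keeps the strand of the RNA, but the strand setting of the counting is not given in the sources used here. Counts listed under a gene may therefore come from RNA of its own strand or of the other strand, and which of these holds for each member was not tested. Fewer cells in a cell cycle stage and less RNA per cell cannot be told apart in these bulk samples.

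The claspin locus was counted almost wholly on the strand of AL354864.1. Over the 17 libraries AL354864.1 held 4243 counts and CLSPN 477, so that 89.9% of the pair's counts lay on AL354864.1. The ratio of AL354864.1 to CLSPN counts was between 5.67 and 16.5, with a median of 8.75, and was above 1 in 17 of 17 libraries. Per kilobase of annotated exon the mean level was 232 CPM for AL354864.1 and 2.58 CPM for CLSPN, an 89.3-fold ratio of summed counts per kilobase. Where on each feature the reads lie cannot be seen from counts per gene.

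AL354864.1 was highest in arrested cells and lowest in cells with inhibitor. In experiments A, B and C it was at 150, 151 and 150 CPM in cycling cells and at 216, 153 and 215 CPM in arrested cells. In 4h_DMSO it was at 165, 136 and 125 CPM, and in 4h_ATRi at 82.1, 82.6 and 80.7 CPM. All 3 inhibited libraries at 4 h thus lay below all 3 DMSO libraries, and close together. At 6 h it was at 92.3, 105 and 86 CPM with DMSO and at 57.1 and 75.5 CPM (A and B) with inhibitor, again without overlap. Here and below, libraries that do not overlap are only described. How many of all features separate in this way was not counted, and with so few libraries it can happen without a true difference. By group mean the order was arrested (194 ± 36.3 CPM), cycling (150 ± 0.816), 4h_DMSO (142 ± 20.5), 6h_DMSO (94.4 ± 9.65), 4h_ATRi (81.8 ± 0.97) and 6h_ATRi (66.3 ± 13; SD, n = 3, for 6h_ATRi n = 2).

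CLSPN itself followed a similar order at far lower counts, between 13 and 51 per library. In experiments A, B and C it was at 13.3, 15.9 and 15 CPM in cycling cells, 13.1, 21.4 and 25.9 CPM in arrested cells, and 16.5, 13.9 and 18.7 CPM in 4h_DMSO. It was at 8.66, 12.8 and 14.2 CPM in 4h_ATRi, 8.86, 12.1 and 11 CPM in 6h_DMSO, and 7.28 and 8.62 CPM (A and B) in 6h_ATRi. The 4h_ATRi and 4h_DMSO libraries overlapped, although the inhibited library was lower in each of the 3 experiments, and the 6h_ATRi libraries lay below those of 6h_DMSO.

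**Figure D1:**
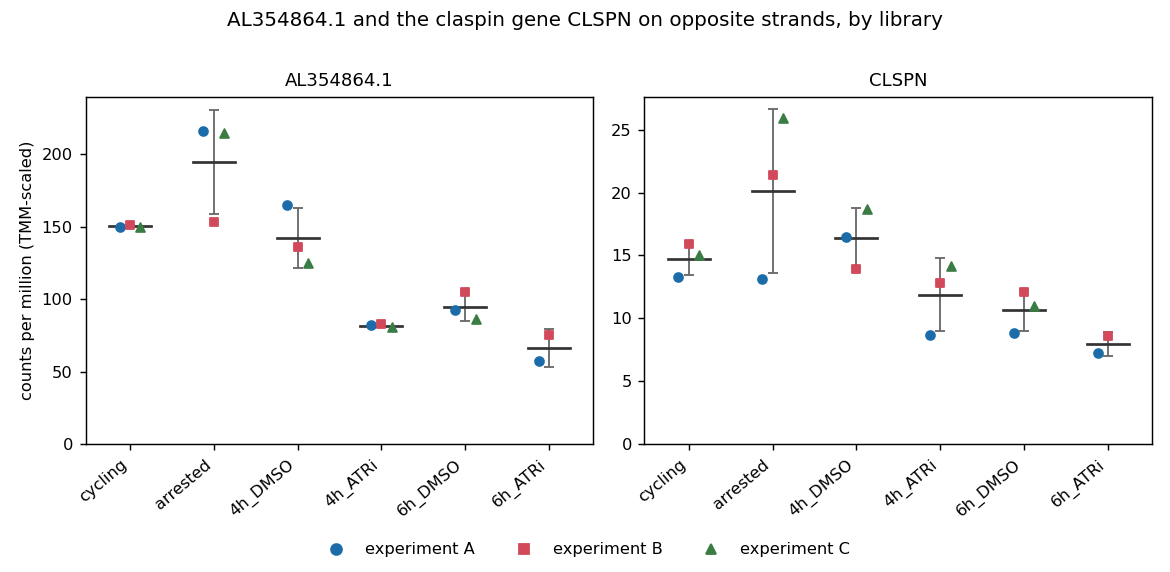
CPM (TMM-scaled, linear axes from 0, a different range in each panel) of AL354864.1 (left) and CLSPN (right) in the 6 conditions. Points are libraries, with colour and shape for the experiment, horizontal lines are group means and bars are 1 SD (n = 3, for 6h_ATRi n = 2). AL354864.1 lies between 80.7 and 82.6 CPM in 4h_ATRi, below all 4h_DMSO libraries, and CLSPN lies between 7.28 and 25.9 CPM in all libraries.

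With ATR inhibited for 3 h in late S phase, AL354864.1 fell by 0.80 on the log2 scale (SE 0.17, 95% interval -1.14 to -0.45, 81.8 against 142 CPM; adjusted p = 0.0285, edgeR quasi-likelihood test with Benjamini-Hochberg adjustment over all 13510 features). The difference within experiments A, B and C was -1, -0.72 and -0.63. It was the only member called of 8 tested, where 0.311% of all tested features were called (42 of 13510). With the experiment as a block the adjusted p was 4.91e-06, and RAD1 was called as well, so that 2 of 8 members were called where 1.75% of all features were. Without the block, leaving out any 1 of the 6 libraries of 4h_DMSO and 4h_ATRi ended the AL354864.1 call (adjusted p from 0.0588 to 0.193), with a difference between -0.87 and -0.67. With the block, the call held in 6 of 6 such fits (adjusted p from 2e-05 to 0.00253). The authors' deposited table gives AL354864.1 a log2 fold change of -0.74 and an adjusted p of 0.00135 in this comparison. CLSPN had a difference of -0.46 ± 0.29 (SE; 95% interval -1.06 to 0.15) and was not called. With the counts of CLSPN and AL354864.1 summed as 1 feature, the locus fell by 0.76 ± 0.16 on the log2 scale (adjusted p = 0.0328). AL354864.1 holds 89.9% of the summed counts, so the sum mostly repeats its difference.

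At 6 h, after 5 h of inhibitor, no member was called by edgeR, where 0.0074% of all features were (1 of 13510); with the block no member was called either, where 0.533% of features were. DESeq2, which gave 3 of the 8 an adjusted p, called none. At an unadjusted p under 0.05 there was 1 member, AL354864.1, with a difference of -0.51 ± 0.20 (SE; 95% interval -0.91 to -0.11; 66.3 against 94.4 CPM; adjusted p = 1, and 0.149 with the block). Of all 13510 features 648 had an unadjusted p under 0.05 here. AL354864.1 was lower in experiments A (-0.69) and B (-0.48). CLSPN had a difference of -0.41 ± 0.37. Neither AL354864.1 nor any other member was called for a difference between the responses at 6 h and 4 h. For AL354864.1 that difference was 0.29 ± 0.26 (95% interval -0.24 to 0.81). In the same test edgeR called 0% of all features (401 had an unadjusted p under 0.05, of them no member; DESeq2 called 0), and 0.0444% with the block.

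AL354864.1 was also lower in cells released for 6 h without inhibitor than in arrested cells. Between arrested cells and 6h_DMSO it fell by 1.04 on the log2 scale (SE 0.17, 95% interval -1.38 to -0.70; 94.4 against 194 CPM; adjusted p = 4.58e-04), by 1.23, 0.54 and 1.32 in experiments A, B and C. It was the only member called of 8, where 2.32% of all features were. With the block CLSPN was called too, as 2 of 8 members where 7.71% of features were: its difference was -0.93 ± 0.30 without the block (10.6 against 20.1 CPM; adjusted p = 0.115) and -0.91 with it (adjusted p = 0.0363). The CLSPN libraries of 6h_DMSO (8.86 to 12.1 CPM) lay below those of arrested cells (13.1 to 25.9 CPM). In the authors' deposited table AL354864.1 has a log2 fold change of -0.97 and an adjusted p of 2.34e-07 here.

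The intermediate steps were smaller. From arrested cells to 4h_DMSO AL354864.1 had a difference of -0.45 ± 0.16, which was not called (adjusted p = 0.27) but was with the block (adjusted p = 0.0127). No member was called here without the block, where 0.74% of all features were, and 1 of 8 with it, where 4.77% were. From 4h_DMSO to 6h_DMSO AL354864.1 had a difference of -0.59 ± 0.17 (adjusted p = 0.377, with the block 0.00286), and CLSPN of -0.62 ± 0.30 (adjusted p = 0.998). Here too 0 of 8 members were called without the block (0.0814% of all features) and 1 of 8 with it (1.04%). These 2 steps share the 4h_DMSO libraries, which are also the controls of the inhibitor comparison at 4 h. At an unadjusted p under 0.05 edgeR had 1 member in the first step, beside 1307 of all features. In the second it had 3 (ATR, CLSPN and AL354864.1), beside 672 of all features. DESeq2 called none in either, with an adjusted p for 4 and 6 members.

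Between inhibited cells at 4 h and uninhibited cells at 6 h the claspin locus was not called different. Between 4h_ATRi and 6h_DMSO the difference of AL354864.1 was -0.21 ± 0.17 (95% interval -0.56 to 0.14), with all 4h_ATRi libraries (80.7 to 82.6 CPM) just below all 6h_DMSO libraries (86 to 105 CPM), and that of CLSPN was 0.16 ± 0.31. No member was called, where 0.0962% of all features were, nor with the block, where 1.58% were. Only 1 member, ATR, had an unadjusted p under 0.05, beside 753 of all features. DESeq2 called none of the 5 members to which it gave an adjusted p. In the same comparison none of 10 genes of G2 and mitosis and none of 13 tested S phase genes was called by edgeR, with or without the block (2 and 1 at an unadjusted p under 0.05 without it; DESeq2 called none of 7 and 8 with an adjusted p). With inhibitor at 4 h, 3 of the 10 genes of G2 and mitosis rose (CENPF, PLK1 and TOP2A) and none fell. Of all features 0.311% were called here. The median log2 difference of the 10 genes was 0.87, beside -0.01 over all features. With the block 4 rose, with KIF20A added (adjusted p = 0.00304), beside 1.75% of all features called. CENPF, a kinetochore protein of G2 and mitosis, was at 69.4 ± 5.17 CPM in 4h_DMSO and 134 ± 7.97 CPM in 4h_ATRi. Of the 13 S phase genes none was called at 4 h, with or without the block, with a median of -0.38. There 1 of them had an unadjusted p under 0.05 without the block, beside 756 of all features. DESeq2 called none of the 8 S phase genes with an adjusted p. Between arrested cells and 6h_DMSO, 4 of the 10 G2 and mitosis genes rose (median 1.03), where 2.32% of all features were called. With the block 6 rose and 1, CCNA2, fell, where 7.71% of all features were called. Of the 13 S phase genes 1 fell, MCM3 of the replicative helicase. Their median was -0.88, beside -0.01 over all features. Differences below 0 were found in 12 of these 13, and the share of all features below 0 was not counted. With the block 5 of these 13 fell, beside the same 7.71% of all features called. The part of cell cycle stage in the differences of AL354864.1 was not tested.

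Before the release, the thymidine arrest itself went with a higher mean of AL354864.1, which did not pass the test. Its difference between arrested and cycling cells was 0.37 ± 0.16 (194 against 150 CPM; adjusted p = 0.434, with the block 0.0571). In experiment B it was 0.01, and in A and C 0.53 and 0.52. With experiment B left out the difference was necessarily larger, at 0.54. No member was called in this comparison, where 1.03% of all features were. At an unadjusted p under 0.05 edgeR had 3 members (AL354864.1, CHEK1 and RAD1), beside 1336 of all features. DESeq2 called none of the 6 with an adjusted p. With the block RAD1 was called, 1 of 8 members where 5.64% of features were.

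RAD1, the clamp subunit, and BRIX1 on the other strand had counts of the same order. RAD1 held 3394 counts in all and BRIX1 1730, with a ratio between 1.12 and 2.95 and above 1 in 17 of 17 libraries. Per kilobase of annotated exon RAD1 was at 14.6 CPM and BRIX1 at 10.1 CPM, and 482 bases of their exons overlap. In experiments A, B and C RAD1 was at 136, 118 and 142 CPM in cycling cells, 86.6, 82.5 and 114 CPM in arrested cells, 139, 63.4 and 126 CPM in 4h_DMSO and 80.7, 69.3 and 77.4 CPM in 4h_ATRi. It was at 109, 84.9 and 92.1 CPM in 6h_DMSO and at 95.2 and 67.9 CPM (A and B) in 6h_ATRi. The cycling libraries lay above the arrested ones, and the 4h_DMSO library of experiment B, at 63.4 CPM, was the lowest of all 17.

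With inhibitor at 4 h RAD1 had a difference of -0.53 ± 0.22 (SE; 95% interval -0.98 to -0.08), which was not called (adjusted p = 0.744). Within experiments A, B and C it was -0.79, 0.13 and -0.70. With the block RAD1 fell (-0.50 ± 0.14, adjusted p = 0.0354), but in fits with the block that left out 1 of the 6 libraries it was called in 2 of 6 (adjusted p from 0.0014 to 0.553): the call held without 4h_DMSO B and without 4h_ATRi B. With experiment B, in which RAD1 did not fall, left out altogether, the difference was necessarily larger, at -0.74. RAD1 and BRIX1 counts summed gave -0.37 ± 0.17 (adjusted p = 0.853). At 6 h RAD1 had a difference of -0.22 ± 0.25. Between arrested and cycling cells it had -0.48 ± 0.21 (94.3 against 132 CPM; adjusted p = 0.437), and with the block it fell (-0.48 ± 0.14, adjusted p = 0.0171), by 0.65, 0.51 and 0.32 in experiments A, B and C.

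BRIX1 stayed between 38.6 and 67.1 CPM over all libraries and was called in none of the comparisons, with or without the block. Its group means ran from 43.3 ± 6.6 CPM in 6h_ATRi (n = 2) to 58.1 ± 8.66 CPM in arrested cells. With inhibitor its difference was -0.09 ± 0.19 at 4 h (95% interval -0.48 to 0.30) and -0.03 ± 0.22 at 6 h. Its 6h_DMSO libraries (41.1 to 48.9 CPM) lay below the arrested ones (49.8 to 67.1 CPM), with a difference of -0.39 ± 0.19 that was not called (adjusted p = 0.418).

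ATR, the target of the inhibitor, was counted at 3 to 15 reads per library, so that only large differences could be detected. Its group means were 4.56 ± 0.954 CPM in cycling cells, 4.98 ± 1.84 in arrested cells, 5.13 ± 1.28 in 4h_DMSO and 5.07 ± 1.53 in 4h_ATRi. They were 2.25 ± 1.38 CPM in 6h_DMSO and 3.31 ± 0.866 in 6h_ATRi (n = 2). The 6h_DMSO libraries, at 1.4, 1.51 and 3.84 CPM, lay below those of 4h_DMSO (3.94 to 6.49 CPM), with a difference of -1.19 ± 0.55 that was not called (adjusted p = 0.948); against arrested cells it was -1.15 ± 0.55 (adjusted p = 0.414). The inhibitor differences were -0.01 ± 0.49 at 4 h and 0.57 ± 0.64 at 6 h, with 95% intervals of -1.03 to 1 and -0.75 to 1.89.

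A processed pseudogene on the opposite strand, AC109992.1, lies with all of its 2048 bases over ATR exon sequence and held more counts than ATR in 17 of 17 libraries (788 against 146 in all, median ratio 6). It was at 25.5, 24.8 and 26.1 CPM in 4h_DMSO of experiments A, B and C and at 18.2, 19.6 and 15.7 CPM in 4h_ATRi. At 6 h it was at 19.6, 27.1 and 24.7 CPM with DMSO and at 13.4 and 19.4 CPM with inhibitor. The inhibited libraries were lower at both times without overlap, a separation that was not counted over all features. The differences, -0.51 ± 0.24 and -0.53 ± 0.28, were not called (adjusted p = 0.859 and 1). Across all 6 conditions AC109992.1 was called with the block (adjusted p = 0.0115) and not without it (adjusted p = 0.104). With ATR and AC109992.1 summed, which was chosen after these values were seen, the difference was -0.41 ± 0.22 at 4 h and -0.39 ± 0.26 at 6 h, between 6h_DMSO and arrested cells 0.04 ± 0.22, and between 6h_DMSO and 4h_DMSO -0.23 ± 0.22. AC109992.1 holds 84.4% of the summed counts, so the sum mostly follows AC109992.1. Whether the counts of AC109992.1 come from ATR RNA or from RNA of the other strand was not tested.

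ATRIP, the partner that brings ATR to DNA, had 3 counts in 34549615 (95% exact Poisson interval 0.619 to 8.77 counts, counting error only), 1 in 4h_DMSO B and 2 in 6h_DMSO C. In the 15 libraries at 0, a count of 0 allows up to 3 counts, or between 1.33 and 1.78 CPM. TREX1, a DNA exonuclease gene, lies with all of its 1515 exon bases within ATRIP exon sequence on the same strand. Reads there fit both genes, and how the counting treated such reads is not given. The 0 of TREX1 in all 17 libraries is therefore no measure of its RNA, and ATRIP may lack reads there too. No statement on ATRIP across conditions is possible from these few counts.

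TOPBP1, the activator of ATR, had between 9 and 28 counts per library and group means from 6.16 ± 1.62 CPM in cycling cells to 10.3 ± 3.88 CPM in arrested cells. In arrested cells experiment C stood at 14.2 CPM, above A (10.1) and B (6.46). The difference between arrested and cycling cells was 0.73 ± 0.39 (adjusted p = 0.581), and with inhibitor 0.05 ± 0.39 at 4 h and -0.35 ± 0.45 at 6 h. Their 95% intervals, -0.76 to 0.86 and -1.28 to 0.57 on the log2 scale, leave room for sizeable differences in either direction.

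The fork protection complex was represented by TIMELESS, with 13 to 36 counts per library. Its group means lay between 10.1 ± 4 CPM in 6h_ATRi (n = 2) and 13.9 ± 1.81 CPM in 4h_DMSO. With inhibitor its difference was -0.26 ± 0.30 at 4 h (95% interval -0.88 to 0.35) and -0.30 ± 0.35 at 6 h, and it was called in no comparison with or without the block. TIPIN, the other subunit, had 74 counts in all, from 0 to 13 per library, and did not pass the filter. Its means were 3.9 ± 2.68 CPM in cycling and 3.06 ± 0.947 CPM in arrested cells, 1.81 ± 0.56 in 4h_DMSO, 1.67 ± 1.6 in 4h_ATRi, 1.37 ± 0.806 in 6h_DMSO and 0.549 ± 0.0148 in 6h_ATRi (n = 2, 1 count in each library). The lower values after release rest on 8 counts in 6h_DMSO and 17 in arrested cells and were not tested.

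CHEK1, which encodes the effector kinase CHK1, had 3 to 19 counts per library. In experiments A, B and C it was at 8.42, 8.47 and 9.18 CPM in cycling cells and at 2.97, 4.47 and 4.06 CPM in arrested cells, without overlap. The difference of -1.16 ± 0.49 (95% interval -2.16 to -0.16) was not called (adjusted p = 0.402, with the block 0.151). In released cells CHEK1 lay between 1.49 and 7.01 CPM, and the inhibitor differences were -0.21 ± 0.51 at 4 h and -0.09 ± 0.55 at 6 h. Within experiments the 4 h difference was -1.94, 1.30 and 0.36, so that it had no common direction.

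**Figure D2:**
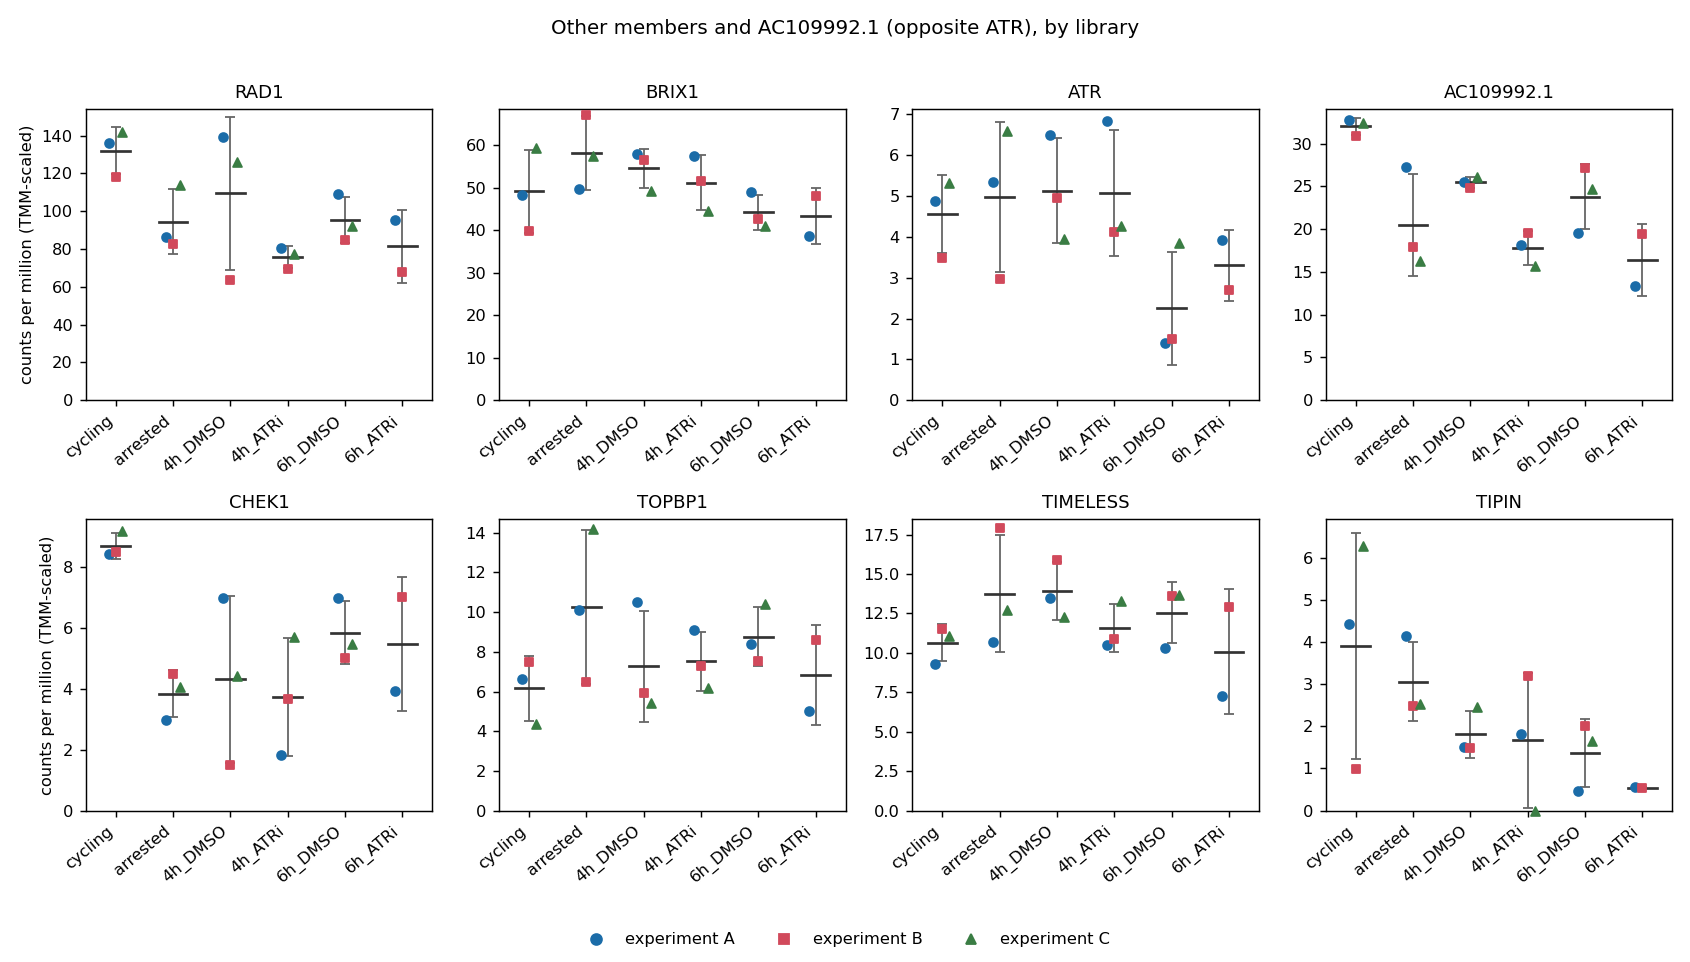
CPM (TMM-scaled, linear axes from 0, a different range in each panel) of RAD1, BRIX1, ATR, AC109992.1 on the strand opposite ATR, CHEK1, TOPBP1, TIMELESS and TIPIN. Points are libraries, lines are group means and bars are 1 SD (n = 3, for 6h_ATRi n = 2). RAD1 of experiment B in 4h_DMSO lies at 63.4 CPM, below the other libraries of its group, and the CHEK1 libraries of cycling cells lie above those of arrested cells.

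**Figure D3:**
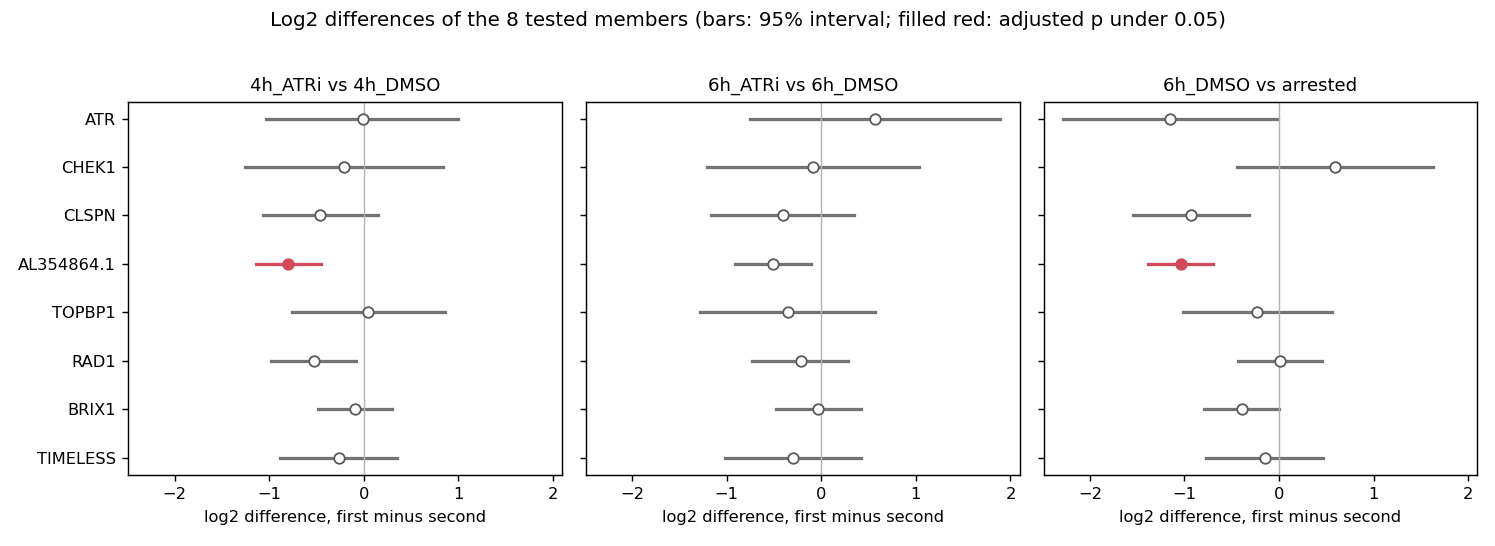
Log2 differences (x axis, first condition minus second) of the 8 tested members (y axis) with inhibitor at 4 h, with inhibitor at 6 h and between 6h_DMSO and arrested cells, from the edgeR fit without block. Points are estimates, bars are 95% intervals, and filled red points have an adjusted p under 0.05. Only AL354864.1 is filled, at -0.80 with inhibitor at 4 h and at -1.04 between 6h_DMSO and arrested cells, and the intervals of ATR and CHEK1 are the widest at 4 h.

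Across all 6 conditions at once, AL354864.1 was the only member called (adjusted p = 5.44e-06), 1 of 8 where 4.86% of all features were called. With the block CLSPN (adjusted p = 0.0268) and RAD1 (2.66e-05) were called as well, 3 of 8 where 18.3% of features were. The median log2 difference of the 8 tested members was -0.24 with inhibitor at 4 h and -0.26 at 6 h, beside -0.01 and 0.01 over all features. At each time 7 of the 8 were below 0, and the share of all features below 0 was not counted. Among the 7, ATR (-0.01) and BRIX1 (-0.09) at 4 h were close to 0, as were BRIX1 (-0.03) and CHEK1 (-0.09) at 6 h. The median of the 8 was -0.31 between 6h_DMSO and arrested cells and 0.31 between arrested and cycling cells, beside -0.01 in both cases over all features. These medians mix genes with features on the opposite strand and rest on the 8 members that passed the filter.

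The features whose pattern over the 17 libraries was most like that of AL354864.1, by Pearson's r of log2 CPM after the experiments' means were aligned, were SLC46A1 (r = 0.96), AC008581.1 (0.95), MLX (0.94), THRIL (0.94) and AC036108.2 (0.94), out of 10284 features with a mean of at least 5 CPM. For CLSPN they were IQGAP2 (0.92), AC130324.2 (0.91), MOCS1 (0.91), AC008581.1 (0.89) and AC027228.2 (0.89). The annotation places an exon on the opposite strand of each of these: SARM1 and AC015917.2 opposite SLC46A1, ZBED3 opposite AC008581.1, PSMC3IP opposite MLX, BRI3BP opposite THRIL and SYNM opposite AC036108.2. For the CLSPN list these are F2RL2, ATAD5, DAAM2, ZBED3 and CHRNA5, in the order named. Such an overlap is found for 60.1% of the features ranked that are in the annotation (6088 of 10138). CLSPN ranked 58th for likeness to AL354864.1 (r = 0.86), and AL354864.1 ranked 17th for likeness to CLSPN. The next highest r of a member with AL354864.1 or CLSPN was 0.56, of BRIX1 with CLSPN. For RAD1 the most alike were UBE2A (0.90), AP001160.1 (0.88), WASHC5-AS1 (0.88), CRYBG3 (0.87) and PHYKPL (0.87), also each with an exon overlapped on the opposite strand. Among members CHEK1 was the most like RAD1 (r = 0.68, ranked 279th), and BRIX1, on the strand opposite RAD1, had r = 0.06 with it. These correlations describe 17 libraries that share their conditions, and carry no test.

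Of 35 other genes of the pathway (clamp and clamp loader, RPA, the MRN complex, ATM, mediators and the CDC25, WEE1 and CDK regulators), 32 passed the filter. With inhibitor at 4 h 1 of the 32 rose and none fell, beside 0.311% of all features called. Their median difference was -0.02, beside -0.01 over all features. With the block 2 rose, beside 1.75%. At 6 h none was called, and DESeq2 called none of 13 with an adjusted p. There 1 of the 32 had an unadjusted p under 0.05, beside 648 of all features. The gene that rose at 4 h without the block was WEE1, the kinase that holds CDK1 inactive and delays mitosis. In experiments A, B and C WEE1 was at 9.98, 6.94 and 9.35 CPM in 4h_DMSO and at 24.6, 23.3 and 25.2 CPM in 4h_ATRi. All inhibited libraries were above all DMSO libraries, a rise of 1.47 ± 0.27 on the log2 scale (adjusted p = 0.00813). The WEE1 call was lost without 4h_DMSO B (adjusted p = 0.0901) and without 4h_DMSO C (0.0586). At 6 h WEE1 was at 17.2, 13.1 and 18.6 CPM with DMSO and 20.2 and 22.6 CPM with inhibitor.

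CDC25B, a phosphatase that activates CDKs at the entry into mitosis, rose between arrested cells and 6h_DMSO by 1.91 ± 0.38 (28.2 ± 7.38 against 7.47 ± 2.51 CPM; adjusted p = 0.00467). Its libraries were at 8.9, 8.95 and 4.57 CPM in arrested cells and at 24.2, 36.7 and 23.6 CPM in 6h_DMSO, and without arrested C the adjusted p was 0.0503. With inhibitor at 4 h its libraries were at 22.3, 48.4 and 16.1 CPM beside 10.5, 15.4 and 14.3 CPM with DMSO. That difference of 1.11 ± 0.34 was called with the block only (adjusted p = 0.364, with the block 0.00828). CDK2, the kinase of the G1 to S transition, rose in arrested against cycling cells by 1.46 ± 0.37 (14 ± 5.3 against 5.08 ± 1.15 CPM; adjusted p = 0.0448), on 9 to 37 counts per library. This call was lost without experiment B (adjusted p = 0.0799) and in 9 of the 17 fits that left out 1 library (adjusted p up to 0.27). PMEL, opposite CDK2, had a difference of 0.34 ± 0.16 there (adjusted p = 0.495, with the block 0.0267).

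**Figure D4:**
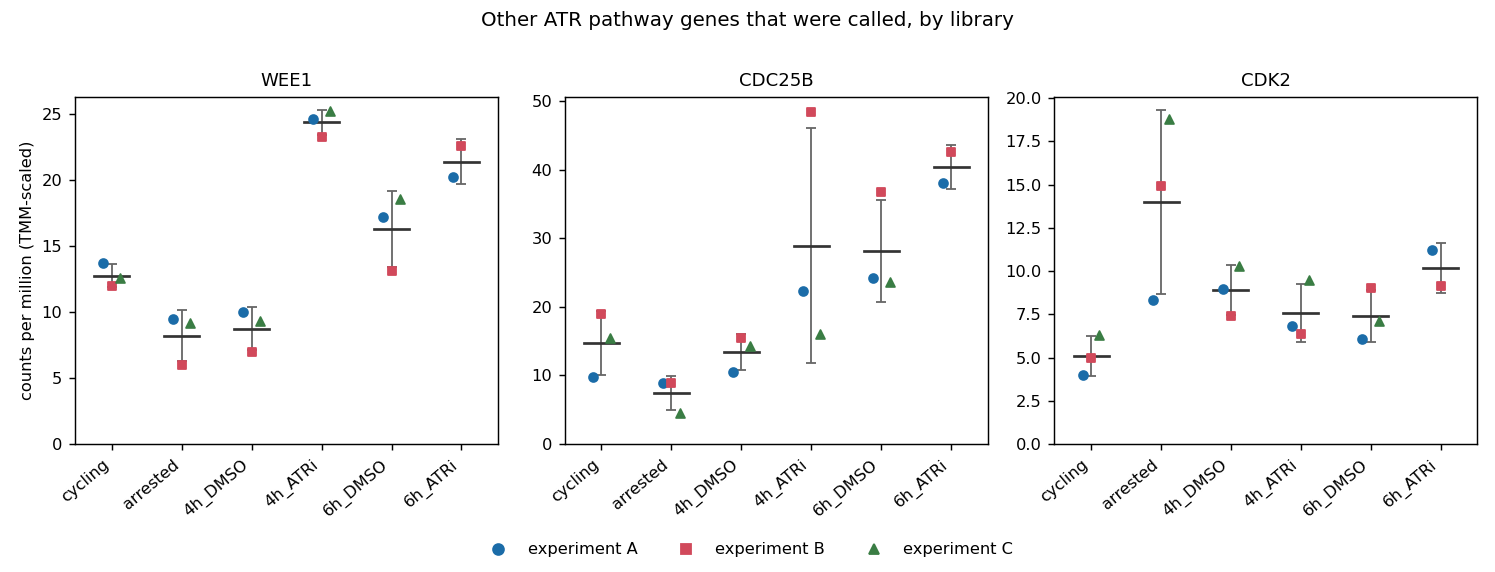
CPM (TMM-scaled, linear axes from 0, a different range in each panel) of WEE1, CDC25B and CDK2 in the 6 conditions. Points are libraries, lines are group means and bars are 1 SD (n = 3, for 6h_ATRi n = 2). WEE1 lies between 23.3 and 25.2 CPM in 4h_ATRi, above all other libraries, and CDC25B of experiment B in 4h_ATRi lies at 48.4 CPM, above the other libraries of its group.

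Between arrested and cycling cells 1 of the 32 genes was called, CDK2, beside 1.03% of all features. With the block 1 rose (CDK2) and 3 fell, beside 5.64% of features: RFC5, a clamp loader subunit (-0.34, adjusted p = 0.0163), CDC25B (-0.99, adjusted p = 0.0417) and PKMYT1 (-0.65, adjusted p = 0.0196). With the block TP53BP1 also fell between arrested cells and 4h_DMSO (-0.41, adjusted p = 0.00758), and CDC25B rose between 4h_DMSO and 6h_DMSO (1.06, adjusted p = 0.0119). Between arrested cells and 6h_DMSO 1 of the 32 genes was called, CDC25B, beside 2.32% of all features. With the block 2 rose (CDC25B and WEE1) and 3 fell (PKMYT1, TP53BP1 and BRCA1), beside 7.71%. TP53BP1, which encodes a mediator of the DNA break response, was at 286 ± 66.6 CPM in arrested cells and 200 ± 24.1 CPM in 6h_DMSO (-0.51 with the block, adjusted p = 2.73e-04; without it -0.52 ± 0.18, adjusted p = 0.16). PKMYT1, a kinase that like WEE1 inhibits CDK1, was at 225 ± 96.2 and 144 ± 29.5 CPM (-0.60 with the block, adjusted p = 0.0336). Both are overlapped on the opposite strand, TP53BP1 by TUBGCP4 and PKMYT1 by PAQR4 and KREMEN2. Across all 6 conditions 4 of the 32 were called (CDC25B, WEE1, PKMYT1 and TP53BP1), beside 4.86% of all features, and 8 with the block, beside 18.3%: these and RFC5, CDK1, CDK2 and H2AX. Of the 35 genes, the 17 with an exon overlapped on the opposite strand had a median level of 18.2 CPM and 5 of them were over 50 CPM; the other 18 had a median of 4.03 CPM and none over 50. Among all tested features the medians were 20.3 CPM for 7086 overlapped features and 7 CPM for 6208 others.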

How the data were processed

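RNA of 17 libraries in 6 conditions was extracted with Trizol and prepared with a stranded mRNA kit, per the labels' protocols. TopHat, HTSeq, DESeq2 and GRCh37 are named in the submitters' processing notes, with no versions or settings. Which gene annotation was used, and whether reads were counted by strand, is not given in the sources used here. The authors deposited raw read counts per Ensembl gene, and a table of log2 fold changes and adjusted p-values of their own comparisons, used only where it is named. The direction of that table's log2 values was read from its correlation across features with the fit described next (Spearman 0.97 to 0.98).

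Counts were fitted with edgeR 4.0.16 in R 4.3.3 (quasi-likelihood test, robust, TMM factors, filterByExpr with a count minimum of 10 and a total of 15), as 1 fit of all libraries with a mean per condition. All p-values were adjusted by Benjamini-Hochberg over 13510 features, and a call is an adjusted p under 0.05. Standard errors are the log2 difference over the root of the F statistic, and 95% intervals use the test's degrees of freedom. The 8 comparisons and a test across all conditions were made; alternatives were the experiment as a block, DESeq2 1.42.0, RLE factors, no filter, summed counts of opposite features, each library left out and experiment B left out. The column names carry the letters A, B and C, read here as the independent experiments, of which the design text counts 3: libraries of the same letter deviated together from their condition means in every pair of conditions compared (correlation 0.138 to 0.536, other letters at most 0.262), so values from the fit with the block are given beside a result where they change a call. The p-values measure the spread between these experiments in 1 cell line.

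All 10 members are named in the report, as are other pathway genes called in any comparison with or without the block; the features most alike are the 5 with the highest correlation. The members, lists and tests were chosen with earlier results of these data known. Symbols were found for 55951 of 60252 identifiers. Exon overlaps, lengths and the AL354864.1 sequence come from GENCODE 29 (GRCh38) and upstream sequences and motif shares from RefSeq (GRCh38.p14); 9 of the 10 members had an entry there. No GRCh38 position was applied to the counts, which use GRCh37. The fit was also run on simulated counts, with large differences planted in abundant features only and no effect of the experiment. That run does not bear on members with few counts or on smaller differences.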

Additional observations from a re-analysis of the deposited data

How the results depend on the processing

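With the replicate block, members called were 2 with inhibitor at 4 h, 1 between arrested and cycling cells and 1 from arrest to 4h_DMSO. They were 2 from arrest to 6h_DMSO, 1 from 4h_DMSO to 6h_DMSO and 3 across all conditions. In the same order 1.75%, 5.64%, 4.77%, 7.71%, 1.04% and 18.3% of all features were called with the block. The block changed no other count of members. DESeq2, RLE factors, no filter on low counts and summed pairs gave the same counts of members as reported in all 9 tests, though DESeq2 gave an adjusted p to between 3 and 8 of the members. Leaving out 1 library gave between 0 and 1 members with inhibitor at 4 h and between 1 and 2 across all conditions, the latter without 4h_DMSO B. None of the differences that reversed was a call. With experiment B left out, the inhibitor difference at 4 h was 0.11 for ATR and -0.04 for TOPBP1, and with ATR and AC109992.1 summed, an alternative chosen after seeing the data, that of ATR was -0.39 at 6 h and 0.04 from arrest to 6h_DMSO; the cause was not tested. With 1 library left out, inhibitor differences ranged at 4 h from -0.28 to 0.19 for ATR, -0.62 to 0.32 for CHEK1, -0.11 to 0.41 for TOPBP1 and -0.17 to 0.02 for BRIX1, and at 6 h from -0.56 to 0.23 for CHEK1, -0.52 to 0 for RAD1, -0.19 to 0.09 for BRIX1 and -0.77 to 0.02 for TIMELESS. Leaving out a 6h_ATRi library, or experiment B, leaves 1 library in 6h_ATRi, which is then assumed to vary like the other groups. Over all features, DESeq2 called 60 at 4 h, 14 at 6 h, 181 from arrest to 4h_DMSO, 28 from 4h_DMSO to 6h_DMSO and 33 between 4h_ATRi and 6h_DMSO; it gave no adjusted p for features with low means. No filter gave 10 at 6 h, 34 from 4h_DMSO to 6h_DMSO and 40 between 4h_ATRi and 6h_DMSO. Leaving out experiment B gave more calls over all features, and more calls of members in some of the tests. Those counts are not given, because that fit leaves 1 library in 6h_ATRi. Leaving out 1 library gave from 13 (without 4h_DMSO C) to 43 with inhibitor at 4 h, 1 to 2 at 6 h, 50 (without cycling A) to 160 between arrested and cycling cells, 26 (without arrested C) to 114 from arrest to 4h_DMSO, 143 (without 6h_DMSO C) to 352 from arrest to 6h_DMSO, 7 to 20 from 4h_DMSO to 6h_DMSO, 5 to 21 between 4h_ATRi and 6h_DMSO and 475 to 734 across all conditions. Members with fewer than 20 counts per library, such as ATR, CHEK1 and TIPIN, could show only large differences at this depth.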
